A study of Mus musculus with 53 samples.

Results

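The comparison described here sets the livers of mice labelled Bmp8b knockout and given carbon tetrachloride (CCl4) against livers of wild-type mice given olive oil. The members were the 12 libraries of the CCl4 count table that the titles place in these 2 groups, out of 53 liver libraries in the study, with 6 livers in each group. All mice were male C57BL/6J, 16 weeks old, and received one intraperitoneal injection of 2 µl per g body weight. The labelled KO livers came from mice with the genotype label Bmp8b knockout that were injected with a 1:1 mix of CCl4 and olive oil. The olive oil livers came from wild-type mice injected with olive oil alone. Livers were taken 3 days after the injection, snap-frozen whole and used for messenger RNA libraries. A further 4 livers came from wild-type mice given the same CCl4 mix, and they stand beside the labelled KO livers as the wild-type CCl4 livers. No labelled KO liver after olive oil was analysed here, so toxin and genotype label differ together and cannot be told apart in the main comparison. The labels give each liver its own mouse number and say nothing of cages or injection days.

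CCl4 is converted to a reactive radical by cytochrome P450 enzymes, above all CYP2E1, in the hepatocytes around the central vein of each liver lobule. Those pericentral cells die, macrophages clear the debris, stellate cells turn into matrix-producing myofibroblasts, and the surviving hepatocytes leave quiescence and divide to refill the lobule. BMP8B, the product of Bmp8b, is a secreted bone morphogenetic protein (BMP), a family that signals through SMAD transcription factors.

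The libraries held 2661699 to 5198039 gene counts in the labelled KO livers, 3699391 to 6364414 in the wild-type CCl4 livers and 4016674 to 5853408 in the olive oil livers. Levels below are CPM (edgeR's counts scaled by the TMM-normalized library size). A gene was called when edgeR's quasi-likelihood test gave a Benjamini-Hochberg adjusted p under 0.05 over the 11663 genes tested, and "rose" and "fell" are used of called genes only. Albumin (Alb), the hepatocytes' main plasma protein, averaged 96441 ± 21864 CPM in the labelled KO livers and 85119 ± 12405 CPM in the olive oil livers (mean ± SD here and below, n = 6, 4 and 6), and apolipoprotein A1 (Apoa1) averaged 11761 ± 1876 CPM in the labelled KO livers and 9901 ± 762 CPM in the olive oil livers, so the labelled tissue carried its defining markers in both groups. One labelled KO liver, mouse 35, stood apart from the other 5. On the first principal component of all tested genes, which held 36.1% of the variance, it lay at 87.0, against -13.4 to 4.72 for the other labelled KO livers and -52.3 to -26.8 for the olive oil livers. Wild-type CCl4 liver 34 lay at 106.5. Both share the sequencing index D505 with olive oil livers 28, 29 and 30. Liver 22 shares index D504 with olive oil livers 24, 26 and 27. Labelled KO livers 2, 8, 9 and 12 and wild-type CCl4 livers 4, 5 and 7 carry index D503, which holds no olive oil liver, so that index and the toxin cannot be told apart for them. A value within D504 therefore sets liver 22 alone against 3 olive oil livers, and a value within D505 sets liver 35 alone against 3. With the index as a covariate, the D503 livers are likewise never set against olive oil directly. That log2 fold change rests mainly on livers 22 and 35, with liver 34 entering through the CCl4 groups.

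The targeted gene was not lower in the livers that carry the knockout label. Bmp8b (ENSMUSG00000002384, chromosome 4, 123105165 to 123132099, GRCm38) ranged from 0.266 to 2.62 CPM (median 0.913) in the labelled KO livers, with 30 counts in all. It averaged 0.464 ± 0.629 CPM in the wild-type CCl4 livers (SD, n = 4), with 13 counts. In the olive oil livers it had 0 counts in all 6 libraries, so that counting error leaves room for levels up to 0.821 CPM in the library with the fewest counts. Each labelled KO liver held at least 1 Bmp8b count and no olive oil liver did, but livers 9, 12 and 22 were at 0.324, 0.276 and 0.266 CPM, below that limit. The exact two-sided permutation test of log2(CPM + 0.5) gave p = 0.00216, the smallest that 6 against 6 livers can give, against a group with no counts. A gene total does not show which exons the reads came from, so it does not check the deletion, and the livers are called labelled KO throughout. The paralog Bmp8a had 1 count in 1 labelled KO liver and none in the other 15 livers.

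One gene was called by edgeR in the labelled KO livers against both wild-type groups. BC002163 (chromosome 16, 42955631 to 42955949), a processed pseudogene, ranged from 4.93 to 10.7 CPM (median 8.25) in the labelled KO livers, against 0 to 0.721 CPM (median 0.254) in the olive oil livers, and averaged 0.205 ± 0.147 CPM in the wild-type CCl4 livers. The 6 labelled KO livers, liver 35 included, lay above all 10 wild-type livers. It rose against olive oil (log2 fold change 4.77, SE 0.54, edgeR adjusted p = 0.000139), by 5.49 without olive oil liver 29, the highest of its group. Within the indices the log2 fold change was 5.26 for D504 and 4.48 for D505. Ndufs5 (chromosome 4, 123712710 to 123718202, minus strand), a subunit of mitochondrial complex I that lies near Bmp8b, moved the other way. Its level was 6.13 to 10.4 CPM (median 7.65) in the labelled KO livers, against 12.3 to 21.4 CPM (median 15.2) in the olive oil livers, with 10.9 ± 5.43 CPM in the wild-type CCl4 livers. The labelled KO and olive oil ranges did not overlap (log2 fold change -1.03, SE 0.24, edgeR adjusted p = 0.0121). BC002163 and Ndufs5 agree over 319 aligned bases at all but 2, an identity of 99.4%, so reads can be assigned to either. The first 120 bases of that stretch are shown because they hold both differences, at positions 81 and 105 counted from the first base printed, which are in capitals.

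BC002163: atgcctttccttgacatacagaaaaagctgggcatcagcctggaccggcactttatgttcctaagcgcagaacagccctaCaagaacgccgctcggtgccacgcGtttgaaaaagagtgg
Ndufs5: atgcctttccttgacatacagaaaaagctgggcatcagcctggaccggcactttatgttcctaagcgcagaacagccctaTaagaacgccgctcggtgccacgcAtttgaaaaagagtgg

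The summed level of the pair was 15.8 ± 3.00 CPM in the labelled KO livers (SD, n = 6), 11.1 ± 5.28 CPM in the wild-type CCl4 livers (n = 4) and 16.1 ± 3.25 CPM in the olive oil livers (n = 6), so the sums of the 6 and 6 livers overlapped. Whether reads of one gene were counted for the other was not tested. Within 10 Mb of Bmp8b, 197 genes were tested, of which 17 rose and 7 fell in the labelled KO livers, or 12.2% beside 9.30% of all tested genes, and none differed from the wild-type CCl4 livers at an adjusted p under 0.05. Utp11, a ribosome-assembly protein encoded in the same region, averaged 17.6 ± 2.79 CPM in the labelled KO livers, 18.5 ± 1.51 CPM in the wild-type CCl4 livers and 16.0 ± 2.63 CPM in the olive oil livers and was not called (log2 fold change 0.13, edgeR adjusted p = 0.651).

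**Figure D1:**
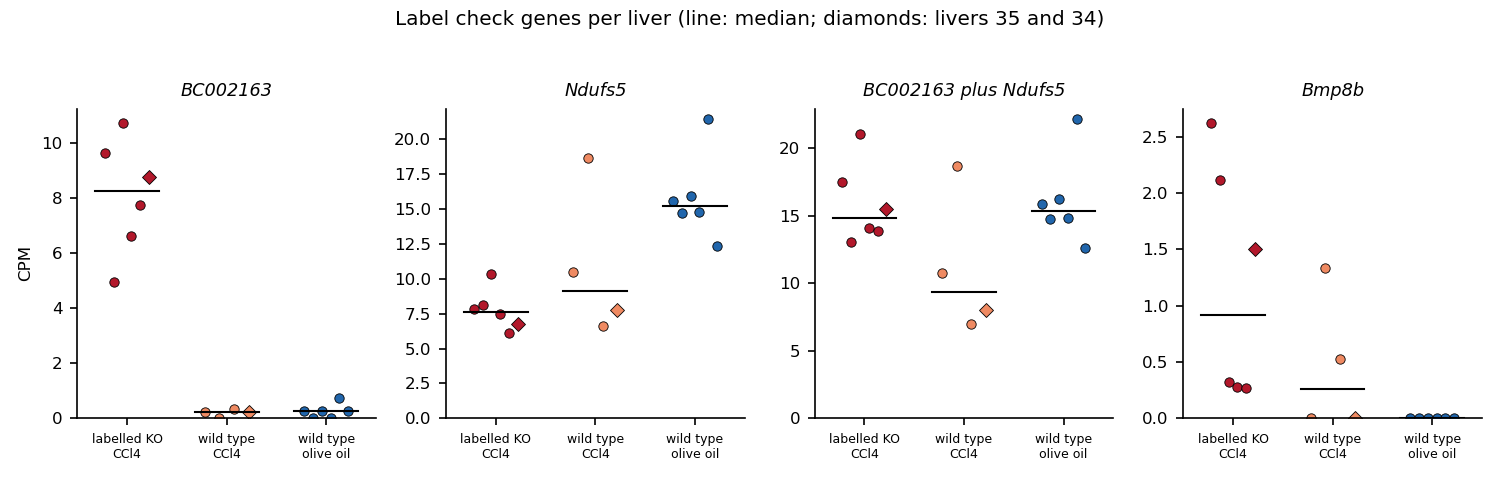
Level in CPM per liver of BC002163, Ndufs5, their sum and Bmp8b in labelled KO CCl4, wild-type CCl4 and wild-type olive oil livers; each point is 1 liver, lines are medians and diamonds mark livers 35 and 34. BC002163 is at 4.93 CPM or more in the 6 labelled KO livers and at 0.721 CPM or less in the 10 wild-type livers, and the summed levels overlap.

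Across the transcriptome, 1085 genes were called between the labelled KO and the olive oil livers, or 9.30% of those tested. Of these, 689 rose (5.91%) and 396 fell (3.40%), and 2805 genes had an unadjusted p under 0.05. The median log2 fold change of all tested genes was 0.03. The counts of called list members below are to be read beside these shares of 5.91% and 3.40%. The ranges of the 6 and 6 livers did not overlap for 354 higher genes (3.04%) and 387 lower genes (3.32%). By the rule for the largest changes, cell division and macrophage genes led the rises, and pericentral and male-biased liver genes led the falls. Gpnmb, a glycoprotein of phagocytes loaded with lipid, was 36.7 to 177 CPM in the labelled KO livers and at most 0.755 CPM in the olive oil livers. Slc1a2, a glutamate transporter of the hepatocytes next to the central vein, was at most 1.10 CPM in the labelled KO livers and 87.8 to 249 CPM in the olive oil livers.

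**Figure D2:**
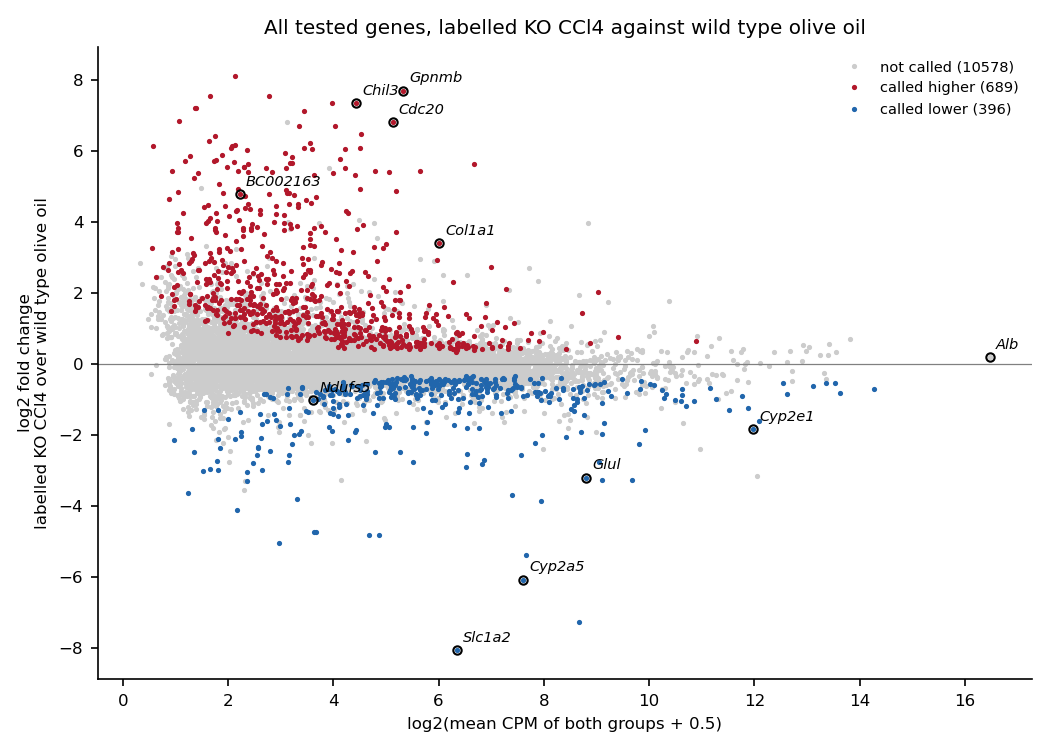
Log2 fold change of each tested gene, labelled KO CCl4 over wild-type olive oil livers, against the log2 mean CPM of both groups; red points rose, blue points fell and grey points were not called at an adjusted p of 0.05. The 689 rises reach a log2 fold change of 7.69 for Gpnmb, a gene nearly silent after olive oil, while Alb at the right edge lies at 0.18.

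Pericentral hepatocyte genes were lower in the labelled KO livers. Of 15 tested members, 6 fell and none rose, beside 3.40% and 5.91% of all genes, with a median log2 fold change of -0.98 against 0.03 over all genes. Slc1a2 was 0 to 1.10 CPM (median 0.663) in the labelled KO livers, against 87.8 to 249 CPM (median 149) in the olive oil livers. Every olive oil liver was above every labelled KO liver, and 2 labelled KO livers had no count (log2 fold change -8.07, SE 0.63, edgeR adjusted p = 2.56e-06). Glul, glutamine synthetase, which marks the innermost ring of hepatocytes and detoxifies ammonia, was 38.0 to 251 CPM (median 56.6) in the labelled KO livers, against 462 to 1059 CPM (median 916) in the olive oil livers. Liver 35 was the highest labelled KO liver, at 251 CPM, yet still below the olive oil livers (log2 fold change -3.21, SE 0.49, edgeR adjusted p = 0.00137). Without it the log2 fold change of Glul was -3.89. Oat, ornithine aminotransferase, had 23.2 to 335 CPM (median 57.2) in the labelled KO livers, against 804 to 1141 CPM (median 1038) in the olive oil livers. It fell with a log2 fold change of -3.28 (SE 0.67, edgeR adjusted p = 0.00602) and of -4.15 without liver 35, again the highest of its group.

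Cyp2e1, the enzyme that activates CCl4, was 995 to 2569.6 CPM (median 1833) in the labelled KO livers, against 3465 to 9169.8 CPM (median 6563) in the olive oil livers. Every labelled KO liver was below every olive oil liver (log2 fold change -1.84, SE 0.31, edgeR adjusted p = 0.00203). In the wild-type CCl4 livers Cyp2e1 averaged 639 ± 210.3 CPM (SD, n = 4), below the labelled KO livers at a log2 difference of 1.46, labelled KO over wild type, which had an unadjusted edgeR p of 0.000705 and did not pass adjustment. The transcription factor Tbx3 and the sterol 27-hydroxylase Cyp27a1 were the other pericentral genes that fell, with log2 fold changes of -1.92 and -0.98. The call of Tbx3 was lost without labelled KO liver 2 or 8 or olive oil liver 24, 27 or 28, and that of Cyp27a1 with the index as a covariate. Members that were not called include the Wnt targets Axin2 (-0.47), Lgr5 (-0.22) and Notum (-0.44) and the dioxin-induced Cyp1a2 (-1.48). The list's median log2 fold change was -0.83 within D504 and -1.61 within D505. In whole tissue, fewer cells of a type and less RNA per cell cannot be told apart, here and for each cell type below.

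Of 14 periportal hepatocyte genes, from the other end of the lobule, 2 fell and none rose, and without liver 35 the numbers were 4 and 1. Uox, urate oxidase, was 713 to 1621 CPM (median 844) in the labelled KO livers, against 2199 to 2476 CPM (median 2329) in the olive oil livers, without overlap (log2 fold change -1.20, SE 0.25, edgeR adjusted p = 0.00691). Cyp2f2, a periportal P450, was 85.6 to 808 CPM (median 366) in the labelled KO livers, against 1334 to 1827 CPM (median 1489.5) in the olive oil livers. Liver 35 had the lowest level of all 12, 85.6 CPM, and the call (log2 fold change -1.85, SE 0.49, edgeR adjusted p = 0.0245) was lost without labelled KO liver 2, without labelled KO liver 8 and without olive oil liver 27. The urea cycle enzymes Cps1 and Arg1, abundant in the periportal zone, had log2 fold changes of 0.04 and 0.20 and were not called. No test compared the pericentral with the periportal genes.

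Several enzymes of foreign compound metabolism fell. Of 29 cytochrome P450 and regulator genes, 9 fell and none rose (median -0.80), and of 23 conjugation enzymes 4 fell and none rose (median -0.58). Cyp2a5, a coumarin hydroxylase, was 0 to 19.5 CPM (median 3.81) in the labelled KO livers, against 162 to 654 CPM (median 360.3) in the olive oil livers. The labelled KO livers spread widely, from no count in liver 2 to 19.5 CPM in liver 9, and stayed far below olive oil (log2 fold change -6.08, SE 0.81, edgeR adjusted p = 0.000583, and -6.97 without liver 9). Cyp2c38 was 0 to 1.62 CPM (median 0.888) in the labelled KO livers, against 17.4 to 26.8 CPM (median 23.3) in the olive oil livers, and Cyp2c37 was 19.0 to 35.2 CPM (median 27.1) in the labelled KO livers, against 103 to 209 CPM (median 162) in the olive oil livers; both belong to the Cyp2c family of drug and fatty acid oxidases. Their log2 fold changes were -4.73 (SE 0.51) and -2.54 (SE 0.30), with edgeR adjusted p = 0.000103 and 0.000238. Cyp2a5, Cyp2c37 and Cyp2c38 have close paralogs, and how the counting split shared reads is not given in the sources used here. The major inducible P450 Cyp3a11 had a log2 fold change of -2.41 and was not called (edgeR adjusted p = 0.0593).

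Among conjugation and hydrolysis enzymes, the carboxylesterase Ces3b was 56.3 to 229.9 CPM (median 118) in the labelled KO livers, against 393 to 744 CPM (median 561) in the olive oil livers. No labelled KO liver reached the lowest olive oil liver (log2 fold change -2.06, SE 0.35, edgeR adjusted p = 0.00203). Ces2a, a second carboxylesterase, fell with a log2 fold change of -2.01 (SE 0.46, edgeR adjusted p = 0.0117). Ugt1a1, the bilirubin-conjugating enzyme, was 49.97 to 100.2 CPM (median 85.2) in the labelled KO livers, against 105 to 178 CPM (median 132) in the olive oil livers, close together but not overlapping (log2 fold change -0.73, edgeR adjusted p = 0.0194, lost without labelled KO liver 2, without olive oil liver 24 and with the index as a covariate); its first exons are spliced to exons shared by the Ugt1a cluster, so its count is uncertain. Of 25 NRF2 and glutathione genes, which answer oxidative stress, none rose and 1 fell, the malic enzyme Me1 (log2 fold change -1.39, SE 0.31, edgeR adjusted p = 0.00911). Heme oxygenase Hmox1 and the quinone reductase Nqo1 had log2 fold changes of 1.62 and 0.76 without a call. Gclc of glutathione synthesis (-0.12), the cystine importer Slc7a11 (2.63) and the transferase Gstm1 (-0.19) were not called either.

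Many genes of a list of growth hormone and male-biased liver genes fell. Of 19, 9 fell and none rose, with a median log2 fold change of -1.30, and 11 fell without liver 35. Cyp4a12a, an arachidonate hydroxylase of male liver and kidney, was 2.46 to 27.4 CPM (median 5.77) in the labelled KO livers, against 93.2 to 555 CPM (median 451) in the olive oil livers. Olive oil liver 29 was the lowest of its group, at 93.2 CPM, still above the highest labelled KO liver, and the log2 fold change was -5.38 (SE 0.78, edgeR adjusted p = 0.000924), or -6.14 without labelled KO liver 2. Its neighbour Cyp4a12b was 0.648 to 5.76 CPM (median 1.22) in the labelled KO livers, against 43.1 to 75.9 CPM (median 48.5) in the olive oil livers (log2 fold change -4.83, SE 0.42, edgeR adjusted p = 5.98e-06, and -5.57 without liver 35). The pair are near-identical copies, so their separate counts are uncertain. Mup9, a major urinary protein, was 0.533 to 2.75 CPM (median 1.51) in the labelled KO livers, against 3.77 to 95.5 CPM (median 49.5) in the olive oil livers. Olive oil livers 29 and 30 were at 3.79 and 3.77 CPM and the other 4 at 34.7 to 95.5 CPM, so the groups came close without touching (log2 fold change -4.83, SE 0.79, edgeR adjusted p = 0.00191). Within the indices its log2 fold change was -7.18 for D504 and -2.36 for D505, and limma voom did not call it (-4.04, adjusted p = 0.170). Mup3 had a log2 fold change of -1.61 (SE 0.32, edgeR adjusted p = 0.00533), the steroid dehydrogenase Hsd3b5 one of -2.83 and the elongase Elovl3 one of -2.70 (-3.34 without labelled KO liver 9). The call of Hsd3b5 was lost without labelled KO liver 2, 8, 9 or 22, wild-type CCl4 liver 5 or olive oil liver 24, 26, 27 or 28. The Mup genes form a family of close copies, so each count is uncertain. Socs2, which growth hormone induces, had 1.74 (-0.32 without liver 35) and was not called, and neither were the growth hormone receptor Ghr (-0.999) and Igf1 (-0.46).

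Bile acid genes fell in part: 5 of 20 fell and none rose, with a median of -0.63. Slc27a5, the ligase that activates bile acids for conjugation, was 436 to 724 CPM (median 519) in the labelled KO livers, against 926 to 1035 CPM (median 984) in the olive oil livers. The ranges were narrow and separate (log2 fold change -0.83, SE 0.14, edgeR adjusted p = 0.00236). Baat, which joins bile acids to taurine, was 116 to 208 CPM (median 190.4) in the labelled KO livers, against 292 to 316 CPM (median 299.7) in the olive oil livers (log2 fold change -0.80, SE 0.18, edgeR adjusted p = 0.0114). The olive oil livers lay close together, labelled KO liver 35 was the lowest of the 12, and the call was lost with the index as a covariate. Cyp7b1, an oxysterol hydroxylase of the alternative synthesis route, was 56.2 to 133 CPM (median 70.1) in the labelled KO livers, against 113 to 692 CPM (median 356) in the olive oil livers, with overlap (log2 fold change -2.23, SE 0.44, edgeR adjusted p = 0.00461). Olive oil livers 28, 29 and 30, of index D505, were at 199, 113 and 117 CPM and livers 24, 26 and 27, of D504, at 513, 606 and 692 CPM; within the indices the log2 fold change was -3.01 for D504 and -1.16 for D505. The rate-limiting enzyme Cyp7a1 had a log2 fold change of -0.37 and the export pump Abcb11 one of -0.80, neither called.

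Most mitochondrially encoded transcripts fell modestly. Of 12 tested, 8 fell and none rose, with a median log2 fold change of -0.54 and of -0.48 within D504 and -0.45 within D505. mt-Nd2, a subunit of complex I, was 3861 to 4767 CPM (median 4617) in the labelled KO livers, against 6943 to 9981 CPM (median 7858) in the olive oil livers (log2 fold change -0.84, SE 0.16, edgeR adjusted p = 0.00344). mt-Co1, a subunit of cytochrome c oxidase, was 12676 to 18028 CPM (median 14405) in the labelled KO livers, against 22636 to 26228 CPM (median 25253) in the olive oil livers (log2 fold change -0.72, SE 0.16, edgeR adjusted p = 0.00863). In both, the 6 labelled KO livers lay below the 6 olive oil livers, liver 35 included. The mt-Co1 call was lost when no genes were filtered out (adjusted p = 0.0711). The members that were not called had log2 fold changes between -0.59 for mt-Nd6 and -0.42 for mt-Cytb.

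Of 15 fatty acid synthesis genes, 5 fell and none rose, with a median of -0.97. Thrsp, a regulator of lipid synthesis, was 6.51 to 43.1 CPM (median 22.4) in the labelled KO livers, against 73.7 to 723 CPM (median 229.9) in the olive oil livers (log2 fold change -3.69, SE 0.66, edgeR adjusted p = 0.00281). Fasn, fatty acid synthase, was 112 to 384 CPM (median 279.7) in the labelled KO livers, against 312 to 1797 CPM (median 845) in the olive oil livers, with overlap between the groups (log2 fold change -1.67, edgeR adjusted p = 0.0147). Mlxipl, the carbohydrate-responsive transcription factor that drives these genes, was 124 to 295 CPM (median 221) in the labelled KO livers, against 384 to 629 CPM (median 519) in the olive oil livers, without overlap (log2 fold change -1.27, SE 0.22, edgeR adjusted p = 0.00229). Scd1, stearoyl-CoA desaturase, had a log2 fold change of -3.15 that did not pass the test (edgeR adjusted p = 0.0969). Liver 35 had the lowest list score of the labelled KO livers, -2.46, against -1.13 to -0.16 in the other 5. Here and below, a list score is the mean of log2(CPM + 0.5) over the tested members of a list, minus its mean over the 6 olive oil livers. Of 22 fatty acid oxidation genes only the thioesterase Acot2 was called, beside 9.30% of all tested genes. It rose with a log2 fold change of 2.60. The call was lost without labelled KO liver 2, without olive oil liver 24 and with the index as a covariate.

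None of 19 hepatocyte identity genes and liver transcription factors was called, with a median log2 fold change of -0.05. Alb had 0.18 (SE 0.25), transthyretin (Ttr) -0.20, the master regulator Hnf4a 0.19 and Cebpa -0.54. In the amino acid list, 3 of 22 genes fell, all on the tyrosine breakdown route, and 6 fell without liver 35. Hgd, homogentisate dioxygenase, was 368 to 551 CPM (median 412) in the labelled KO livers, against 670.2 to 914 CPM (median 684) in the olive oil livers (log2 fold change -0.78, SE 0.17, edgeR adjusted p = 0.00879). Hpd, which acts one step earlier, fell with a log2 fold change of -1.03 (SE 0.25, edgeR adjusted p = 0.0139), and Fah, which acts last, with -0.44. With the index as a covariate both calls were lost, and that of Fah also without labelled KO liver 2, 8 or 12, wild-type CCl4 liver 5 or 7 or olive oil liver 24, 26, 27 or 28, in the fit of the 12 libraries alone and with no filter.

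**Figure D3:**
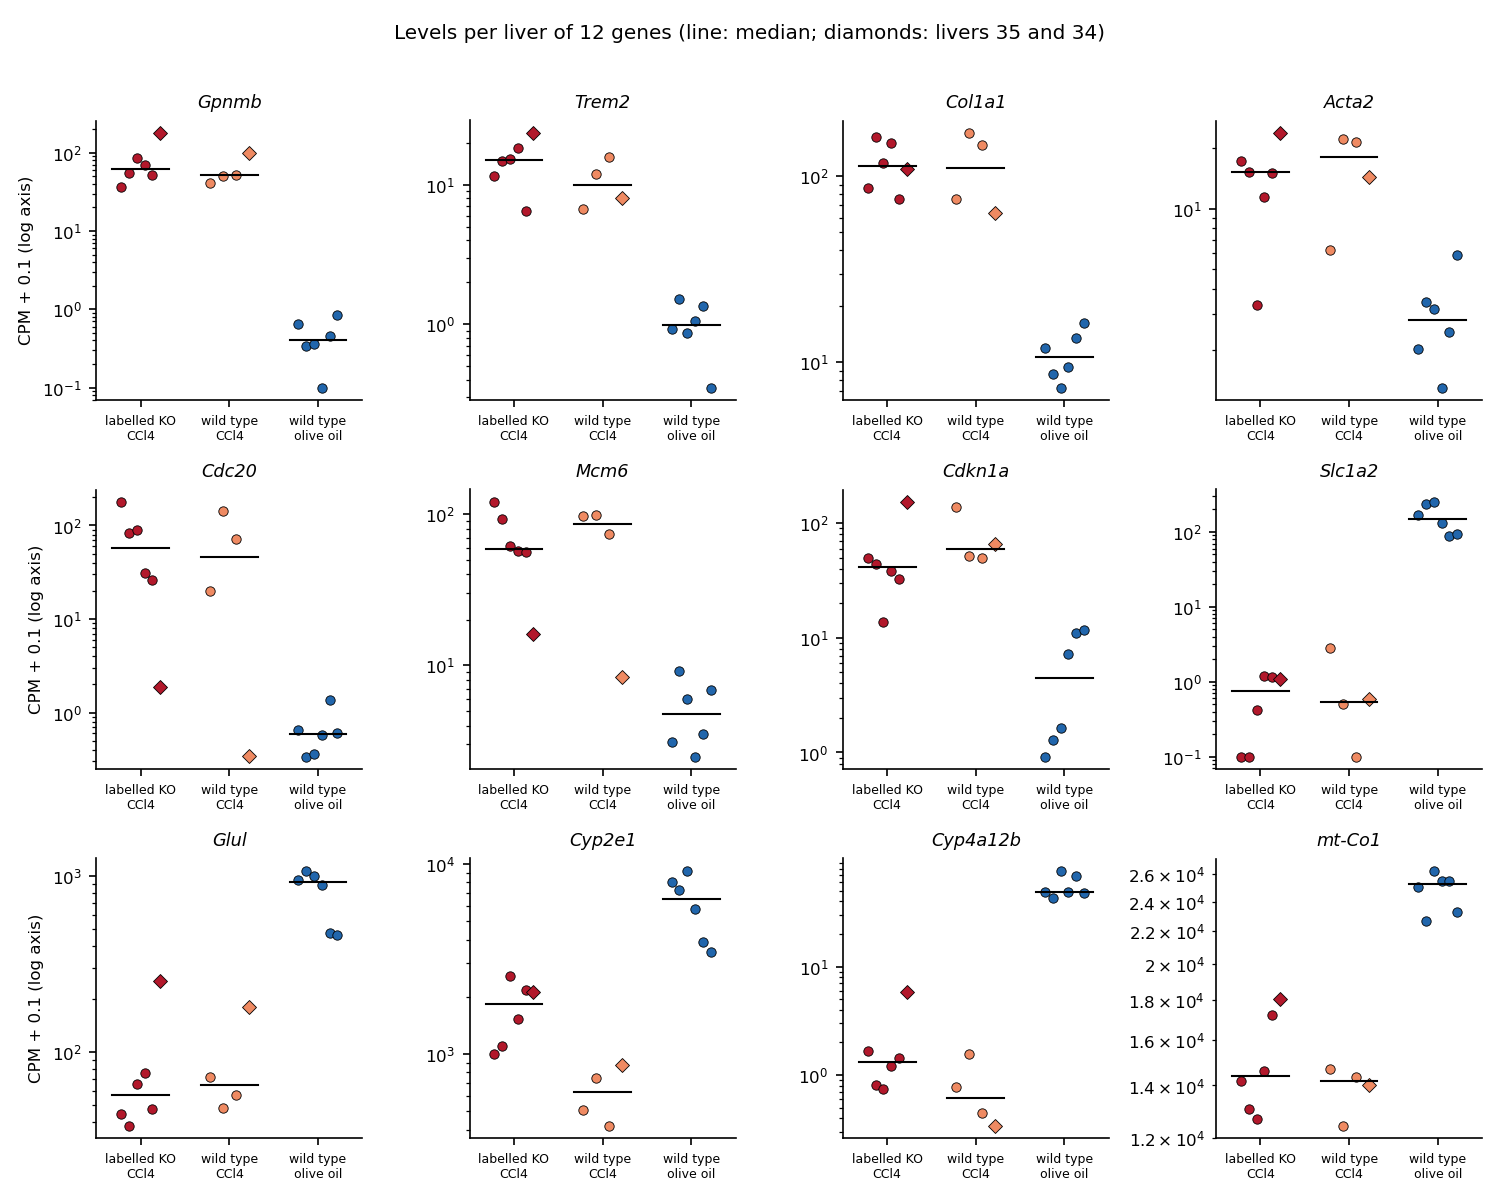
Level per liver of 12 genes on a log axis (CPM + 0.1) in labelled KO CCl4, wild-type CCl4 and wild-type olive oil livers; each point is 1 liver, lines are medians and diamonds mark livers 35 and 34. Liver 35 lies lowest of the labelled KO livers in Cdc20, at 1.75 CPM, and highest in Glul and Gpnmb, at 251 and 177 CPM.

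Cell division genes rose as a block. All 28 mitosis genes rose, with a median log2 fold change of 5.35 and of 5.60 without liver 35, when 28 rose as well. In the olive oil livers the 28 genes summed to only 16.3 to 30.9 CPM, which left little room for a lower call. The filter could also be passed through the CCl4 livers alone, so the count of 28 is a description. Cdc20, which activates the anaphase-promoting complex, was 1.75 to 177 CPM (median 56.8) in the labelled KO livers, against 0.238 to 1.26 CPM (median 0.491) in the olive oil livers. The groups did not overlap, but liver 35 was only just above the highest olive oil liver, while liver 2 stood highest (log2 fold change 6.81, SE 1.21, edgeR adjusted p = 0.00270). Limma voom gave 6.47 and did not call it (adjusted p = 0.0987). Mki67, the proliferation antigen, was 9.51 to 221 CPM (median 75.1) in the labelled KO livers, against 0.717 to 4.02 CPM (median 2.30) in the olive oil livers, with the same order of livers at its ends (log2 fold change 5.43, SE 0.78, edgeR adjusted p = 0.000898). Top2a, the topoisomerase that untangles chromosomes, averaged 53.1 ± 46.9 CPM in the labelled KO livers and 1.18 ± 1.07 CPM in the olive oil livers, and Cdk1, the kinase that starts mitosis, 35.9 ± 32.4 CPM in the labelled KO livers and 1.94 ± 1.21 CPM in the olive oil livers, with log2 fold changes of 5.43 and 4.24. Within the list the log2 fold change ran from 3.201 for the checkpoint protein Mad2l1 to 6.81 for Cdc20. The ranges of the 6 and 6 livers were separate in 14 of the 28.

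Further division genes led the largest rises. Cenpe, a kinetochore motor, was 2.25 to 47.3 CPM (median 15.0) in the labelled KO livers, against 0 to 0.257 CPM (median 0.209) in the olive oil livers (log2 fold change 6.70, SE 1.05, edgeR adjusted p = 0.00145). Ckap2, a spindle protein, was 2.25 to 66.4 CPM (median 25.3) in the labelled KO livers, against 0 to 0.476 CPM (median 0.120) in the olive oil livers, and Ckap2l, its paralog, was 1.25 to 73.3 CPM (median 25.2) in the labelled KO livers, against 0 to 0.772 CPM (median 0.256) in the olive oil livers. Their log2 fold changes were 7.36 (7.96 without olive oil liver 26) and 6.70, with SE 1.18 and 1.03. Prc1, which bundles the central spindle, had a log2 fold change of 5.78 (SE 0.92, edgeR adjusted p = 0.00171). Kif2c, a microtubule depolymerase, had 5.92 (5.30 without labelled KO liver 2 and 6.57 without olive oil liver 28), Cdca2, a phosphatase regulator on chromosomes, 5.83, and Iqgap3, a scaffold protein of proliferating cells, 5.65 (6.55 without olive oil liver 29). Each of these genes had its lowest labelled KO value in liver 35.

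Liver 35 showed much less of the block than its group. Its mitosis list score was 1.25, against 3.70 to 5.65 in the other 5 labelled KO livers and -0.26 to 0.21 in the olive oil livers. Wild-type CCl4 liver 34 scored 0.50, and the other 3 wild-type CCl4 livers 3.77 to 5.41. The summed level of the 28 genes was 77.4 to 1932 CPM in the labelled KO livers, 50.4 to 1673 CPM in the wild-type CCl4 livers and 16.3 to 30.9 CPM in the olive oil livers. The median log2 fold change was 4.63 within D504, where all 28 could be fitted, and 1.81 within D505 over the 13 members abundant enough to be fitted there. With the index as a covariate 25 of the 28 were called, Cdc20 with a log2 fold change of 3.83 and Top2a with 2.97. Limma voom called 24. The fit of the 12 libraries alone tested 10748 genes and called 14 of the 28. Of 118 called genes examined, that fit tested 100, and 1 of these lost its call. Members of the 28 without a call there may therefore not have been tested.

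Most DNA replication genes rose with them: 20 of 28 rose and none fell, with a median of 2.12; 25 rose without liver 35 and 10 with the index as a covariate. Mcm6, a subunit of the replicative helicase, was 16.0 to 119.96 CPM (median 59.2) in the labelled KO livers, against 2.39 to 9.04 CPM (median 4.67) in the olive oil livers (log2 fold change 3.72, SE 0.56, edgeR adjusted p = 0.00127). Mcm7, of the same complex, was 31.8 to 84.1 CPM (median 48.5) in the labelled KO livers, against 13.1 to 17.3 CPM (median 16.5) in the olive oil livers (log2 fold change 1.79, SE 0.29, edgeR adjusted p = 0.00193). In both, each labelled KO liver was above the olive oil livers, with liver 35 nearest to them. Uhrf1, which copies DNA methylation to new strands, had 4.70 (SE 0.79), and Lig1, the ligase of lagging strands, 2.86 (SE 0.48), with edgeR adjusted p = 0.00206 and 0.00203. The replication score of liver 35 was 0.12, inside the olive oil range of -0.19 to 0.33, while the other 5 labelled KO livers scored 1.74 to 3.01. The median was 1.51 within D504 and 0.19 over the 25 members fitted within D505.

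Promoters of the mitosis genes are shown because the members rose together and because cell cycle promoters are known to carry a cell cycle homology region and CCAAT boxes. Of the 28 genes, 23 matched a RefSeq promoter (GRCm38.p6), giving 25 promoters, and the 250 bases before each start were searched on both strands. TTTGAA or its reverse complement TTCAAA was in 9 of 25 promoters and in 5252 of 32851 promoters of all genes (16.0%). CCAAT or ATTGG was in 19 of 25 (76.0%) and in 11120 of all (33.8%). Both were in 9 of 25 and in 1823 of all (5.55%). The motifs can share 1 letter at their ends. The last 120 bases before the start of 6 members that hold both in that stretch follow, 5′ to 3′ on the strand of the gene, with the motifs in capitals; Cdc20 lies at chr4:118437344-118437463, Cdk1 at chr10:69352913-69353032, Ect2 at chr3:27153879-27153998 and Top2a at chr11:99024190-99024309, these on the minus strand, and Kif11 at chr19:37376262-37376381 and Prc1 at chr7:80294356-80294475 on the plus strand.

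Cdc20: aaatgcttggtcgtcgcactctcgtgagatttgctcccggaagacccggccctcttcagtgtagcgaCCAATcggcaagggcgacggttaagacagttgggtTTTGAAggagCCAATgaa
Cdk1: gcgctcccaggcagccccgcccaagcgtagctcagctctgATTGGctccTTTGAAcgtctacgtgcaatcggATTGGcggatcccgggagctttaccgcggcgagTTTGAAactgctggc
Ect2: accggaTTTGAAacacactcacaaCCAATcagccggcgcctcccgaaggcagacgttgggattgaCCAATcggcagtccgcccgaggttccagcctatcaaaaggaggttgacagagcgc
Kif11: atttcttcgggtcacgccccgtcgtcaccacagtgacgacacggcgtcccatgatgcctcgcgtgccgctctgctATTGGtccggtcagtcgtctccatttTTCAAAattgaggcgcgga
Prc1: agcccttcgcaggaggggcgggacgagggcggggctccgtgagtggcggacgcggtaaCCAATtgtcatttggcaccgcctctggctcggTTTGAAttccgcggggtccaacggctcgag
Top2a: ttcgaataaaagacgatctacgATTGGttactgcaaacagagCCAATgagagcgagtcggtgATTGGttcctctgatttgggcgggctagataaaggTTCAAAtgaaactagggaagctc

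The starts are those of RefSeq; by GENCODE vM21 the last 9 bases of the Cdc20 stretch, with its final CCAAT, and the last 26 of the Cdk1 and Prc1 stretches lie in an exon of the gene itself. The Prc1 stretch also lies in an exon of Rccd1 on the other strand. For Kif11 the bases just after the RefSeq start were not found in a GENCODE transcript of the gene. In Ect2 the TTTGAA lies 114 bases before the start, ahead of its CCAAT boxes. These 6 genes had log2 fold changes of 6.81 for Cdc20, 4.24 for Cdk1, 5.38 for the cytokinesis exchange factor Ect2, 3.68 for the spindle motor Kif11, 5.78 for Prc1 and 5.43 for Top2a, of which the Kif11 call was lost with the index as a covariate. A motif match is a description of the letters and does not show binding.

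Some genes of the p53 damage response rose. Of 19 p53 targets, 6 rose and none fell, with a median log2 fold change of 0.55. Cdkn1a, the p21 inhibitor of the cell cycle, was 13.6 to 152 CPM (median 41.0) in the labelled KO livers, against 0.821 to 11.6 CPM (median 4.36) in the olive oil livers. The highest olive oil livers came close to the lowest labelled KO liver, and liver 35 was highest (log2 fold change 3.27, SE 0.64, edgeR adjusted p = 0.00454, and 2.64 without liver 35). Eda2r, of the tumor necrosis factor receptor family, was 3.50 to 8.73 CPM (median 5.01) in the labelled KO livers, against 0 to 2.06 CPM (median 0.494) in the olive oil livers. Its log2 fold change was 2.91 (SE 0.54, edgeR adjusted p = 0.00344), and 3.51 without olive oil liver 27. Tnfrsf10b, the receptor for the death ligand TRAIL, rose with 2.77 (1.41 and not called with the index as a covariate) and Phlda3, an AKT inhibitor, with 3.15 (4.14 without olive oil liver 26). The p53 inhibitor Mdm2 (0.35), the apoptosis gene Bax (0.55) and Gdf15 (0.36) were not called. Among 9 oncofetal and regeneration genes 2 rose. Afp, alpha-fetoprotein of the fetal liver, was 1.00 to 9.50 CPM (median 5.63) in the labelled KO livers, against 0.901 to 1.76 CPM (median 1.06) in the olive oil livers, with overlap at liver 35 (log2 fold change 2.14, SE 0.56, edgeR adjusted p = 0.0224); the call was lost without labelled KO liver 8, without olive oil livers 24, 27 or 28 and with the index as a covariate. Ly6d, a surface marker, had 2.59, lost without labelled KO liver 2, with the index as a covariate and with limma voom.

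Most genes of lipid-loaded scar-associated macrophages rose. Of 14, 10 rose and none fell, with a median log2 fold change of 1.68 and of 2.09 within D504 and 2.52 within D505. Gpnmb was 36.7 to 177 CPM (median 62.2) in the labelled KO livers, against 0 to 0.755 CPM (median 0.309) in the olive oil livers. The groups were far apart and liver 35 was highest (log2 fold change 7.69, SE 0.54, edgeR adjusted p = 9.39e-07). Trem2, a receptor for lipids and cell debris, was 6.40 to 23.3 CPM (median 15.0) in the labelled KO livers, against 0.252 to 1.43 CPM (median 0.889) in the olive oil livers (log2 fold change 3.96, SE 0.38, edgeR adjusted p = 2.06e-05). Mmp12, the macrophage elastase, was 4.54 to 18.4 CPM (median 10.8) in the labelled KO livers, against 0.547 to 2.52 CPM (median 1.12) in the olive oil livers, and here liver 35 lay in the middle of its group (log2 fold change 3.14, SE 0.39, edgeR adjusted p = 0.000278). Cd63, a tetraspanin of lysosomes, was 8.43 to 52.1 CPM (median 13.6) in the labelled KO livers, against 1.37 to 2.87 CPM (median 2.22) in the olive oil livers (log2 fold change 3.31, SE 0.49, edgeR adjusted p = 0.00104). The cytokine Spp1 (osteopontin) rose with 2.11 (1.47 without liver 35), galectin-3 (Lgals3) with 2.91, lipoprotein lipase (Lpl) with 1.65 and the endosomal glycoprotein Cd68 with 1.71. Ctsk (1.55), Itgax (1.49), Atp6v0d2 (1.29) and Fabp5 (-0.02) were not called.

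Of 15 general monocyte and macrophage genes 4 rose, or 3 without liver 35, and none fell. Ccr2, the receptor that draws monocytes into tissue, was 3.46 to 10.6 CPM (median 8.03) in the labelled KO livers, against 0.274 to 3.77 CPM (median 1.02) in the olive oil livers, with a small overlap (log2 fold change 2.30, SE 0.45, edgeR adjusted p = 0.00447). Lyz2, lysozyme, was 89.1 to 358 CPM (median 148) in the labelled KO livers, against 21.3 to 70.7 CPM (median 59.6) in the olive oil livers, without overlap (log2 fold change 1.70, SE 0.34, edgeR adjusted p = 0.00484). Adgre1, the F4/80 antigen, was 19.0 to 29.5 CPM (median 22.7) in the labelled KO livers, against 6.84 to 16.9 CPM (median 12.0) in the olive oil livers, also without overlap (log2 fold change 0.93, edgeR adjusted p = 0.0174). Itgam, the CD11b integrin of monocytes and neutrophils, was 3.46 to 96.1 CPM (median 5.08) in the labelled KO livers, against 0 to 4.12 CPM (median 1.48) in the olive oil livers. Liver 35, at 96.1 CPM, set its mean: the log2 fold change was 3.52 (edgeR adjusted p = 0.0326) with it and 1.59 (edgeR adjusted p = 0.160) without it, and the call was also lost with limma voom and without any one of olive oil livers 24, 26, 28, 29 and 30. Csf1r (0.46) and C1qa (0.09), shared by liver macrophages, were not called. None of 11 Kupffer cell genes, of the resident macrophages, was called, with a median of -0.02: the lectin Clec4f averaged 62.2 ± 27.7 CPM in the labelled KO livers and 93.8 ± 31.8 CPM in the olive oil livers, Timd4 averaged 6.07 ± 2.10 CPM in the labelled KO livers and 9.51 ± 3.84 CPM in the olive oil livers, and the scavenger receptor Marco was at 469 CPM in liver 35 and 11.7 to 60.5 CPM in the other labelled KO livers, against 1.64 to 26.9 CPM in the olive oil livers.

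Chil3, a chitinase-like protein of activated macrophages and neutrophils, was 1.62 to 237 CPM (median 2.65) in the labelled KO livers, against 0 to 0.541 CPM (median 0.126) in the olive oil livers. Liver 35 alone set the high end, and the other 5 labelled KO livers were also above the olive oil livers. Its log2 fold change was 7.34 (SE 1.86, edgeR adjusted p = 0.0194) and 3.59 without liver 35, no longer called (edgeR adjusted p = 0.110), nor was it by limma voom. Without livers 35 and 34 the log2 fold change was 3.59 and Chil3 was called (edgeR adjusted p = 0.0174). Neutrophil markers stood high in liver 35: its score over 5 tested markers was 3.18, against -0.32 to 0.13 in the other 5 labelled KO livers and -1.29 to 1.30 in the olive oil livers, and 4.24 in wild-type CCl4 liver 34. Over the 14 neutrophil markers the summed level was 7.51 to 139 CPM in the labelled KO livers, 9.46 to 298 CPM in the wild-type CCl4 livers and 2.19 to 32.6 CPM in the olive oil livers. S100a8, of neutrophil calprotectin, was 0 to 25.8 CPM (median 0.886) in the labelled KO livers, against 0 to 3.09 CPM (median 1.52) in the olive oil livers, with the highest value in liver 35, and Ly6g was at 0 in both groups. No neutrophil gene was called. The part of neutrophils in the values of liver 35 was not tested.

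Several galectin, annexin and S100 genes rose as well. Of 15, 8 rose and none fell (median 1.04), with 7 without liver 35. S100a11, a calcium-binding protein, was 7.46 to 36.3 CPM (median 16.4) in the labelled KO livers, against 2.06 to 4.28 CPM (median 2.94) in the olive oil livers, without overlap (log2 fold change 2.54, SE 0.33, edgeR adjusted p = 0.000507). Anxa2, an annexin of membranes, was 24.3 to 83.1 CPM (median 42.4) in the labelled KO livers, against 6.69 to 18.4 CPM (median 10.9) in the olive oil livers, likewise separate (log2 fold change 2.05, SE 0.30, edgeR adjusted p = 0.00101). In the wild-type CCl4 livers they averaged 31.3 ± 10.5 CPM and 87.2 ± 13.2 CPM, and the labelled KO livers did not pass the test against them, with edgeR adjusted p = 0.770 and adjusted p = 0.770 for that difference. Of 17 lysosome genes 3 rose, or 2 without liver 35. Psap, the precursor of the sphingolipid activators, was 734 to 1206 CPM (median 802) in the labelled KO livers, against 479 to 536 CPM (median 506.4) in the olive oil livers (log2 fold change 0.76, SE 0.15, edgeR adjusted p = 0.00440), and the cathepsin Ctss was 49.6 to 219 CPM (median 65.1) in the labelled KO livers, against 20.3 to 50.5 CPM (median 33.2) in the olive oil livers (log2 fold change 1.40, edgeR adjusted p = 0.0252, lost without olive oil liver 24 or 28). Liver 35 was the highest in both.

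Many collagen and matrix genes rose. Of 31, 15 rose and 1 fell, the same numbers as without liver 35, with a median of 1.34 and of 1.05 within D504 and 1.31 within D505. Col1a1 and Col1a2 encode the chains of type I collagen, the main fibre of liver scars. Col1a1 was 75.7 to 162 CPM (median 114) in the labelled KO livers, against 7.20 to 16.1 CPM (median 10.5) in the olive oil livers. The groups did not overlap and liver 35 sat in the middle of the labelled KO livers (log2 fold change 3.40, SE 0.29, edgeR adjusted p = 5.98e-06). Col1a2 was 76.2 to 139 CPM (median 105) in the labelled KO livers, against 8.23 to 17.9 CPM (median 15.8) in the olive oil livers (log2 fold change 2.91, SE 0.25, edgeR adjusted p = 5.98e-06), and Col3a1, type III collagen, was 134 to 274 CPM (median 219.9) in the labelled KO livers, against 18.8 to 48.3 CPM (median 32.2) in the olive oil livers (log2 fold change 2.72, SE 0.33, edgeR adjusted p = 0.000278). These 3 genes also stood apart within the indices, with log2 fold changes of 3.05, 2.67 and 2.46 within D504 and 3.04, 2.60 and 2.23 within D505. Fbn1, the fibrillin of microfibrils, was 8.43 to 15.3 CPM (median 9.22) in the labelled KO livers, against 0.772 to 4.06 CPM (median 1.71) in the olive oil livers (log2 fold change 2.38, SE 0.33, edgeR adjusted p = 0.000807). Basement membrane genes rose too, with 1.79 for nidogen Nid1 and 1.61 for Col4a1. Col5a3, a minor fibrillar collagen, fell (-1.71), a call lost without labelled KO liver 2, 8, 12 or 22 or olive oil liver 28, 29 or 30. Fibronectin Fn1 (0.49), decorin Dcn (0.09) and Thbs1 (3.98) were not called.

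Of 21 matrix turnover genes 5 rose and none fell. Timp1, which inhibits metalloproteinases, was 0.648 to 11.5 CPM (median 4.39) in the labelled KO livers, against 0 to 0.755 CPM (median 0.368) in the olive oil livers, with overlap at liver 9 (log2 fold change 3.72, SE 0.82, edgeR adjusted p = 0.00911). Lox, which cross-links collagen, was 2.13 to 10.8 CPM (median 3.74) in the labelled KO livers, against 0 to 2.52 CPM (median 0.257) in the olive oil livers (log2 fold change 2.90, SE 0.74, edgeR adjusted p = 0.0208, and 4.18 without olive oil liver 30), and its relative Loxl2 was 5.98 to 10.8 CPM (median 8.54) in the labelled KO livers, against 0.952 to 5.03 CPM (median 3.27) in the olive oil livers (log2 fold change 1.42, SE 0.35, edgeR adjusted p = 0.0171). Plod2, a collagen lysyl hydroxylase, rose with 2.63, lost with the index as a covariate (0.66), with limma voom and without labelled KO liver 2, 8 or 12 or olive oil liver 24, 26, 27, 28 or 29. Of 13 myofibroblast genes 6 rose, or 5 without liver 35 (median 0.89). Acta2, smooth muscle actin, was 3.24 to 23.5 CPM (median 15.0) in the labelled KO livers, against 1.20 to 5.79 CPM (median 2.72) in the olive oil livers. One labelled KO liver, 9, overlapped the olive oil range (log2 fold change 2.27, SE 0.44, edgeR adjusted p = 0.00437). Tagln, an actin-binding protein of contractile cells, was 9.73 to 30.0 CPM (median 19.0) in the labelled KO livers, against 3.28 to 9.31 CPM (median 5.06) in the olive oil livers (log2 fold change 1.79, SE 0.33, edgeR adjusted p = 0.00344), and Vim, vimentin, was 28.8 to 123 CPM (median 48.3) in the labelled KO livers, against 9.03 to 23.8 CPM (median 17.7) in the olive oil livers (log2 fold change 1.79, SE 0.31, edgeR adjusted p = 0.00253). Fstl1, a secreted follistatin-like protein, rose with 1.91 (SE 0.32, edgeR adjusted p = 0.00208). Among quiescent stellate cell genes, the retinol acyltransferase Lrat averaged 13.7 ± 4.17 CPM in the labelled KO livers and 15.3 ± 7.41 CPM in the olive oil livers. Reelin (Reln) averaged 48.9 ± 19.4 CPM in the labelled KO livers and 42.2 ± 16.3 CPM in the olive oil livers, and neither was called. A part of other cells in these changes was not tested; mesothelial markers were low, with summed levels of 4.80 to 14.8 CPM in the labelled KO livers, 4.20 to 30.5 CPM in the wild-type CCl4 livers and 0.257 to 18.4 CPM in the olive oil livers.

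No tested BMP gene and 1 TGF-beta pathway gene were called, beside 9.30% of all tested genes. None of 24 tested BMP ligands, receptors and antagonists was called, with a median log2 fold change of 0.00, and none of 11 BMP-SMAD targets (median 0.32). Id1, a direct SMAD target, was 10.5 to 31.5 CPM (median 17.1) in the labelled KO livers, against 2.32 to 19.6 CPM (median 4.498) in the olive oil livers, with overlap (log2 fold change 1.14, edgeR adjusted p = 0.149, and 1.65 and called without olive oil liver 29). Smad6 and Smad7, inhibitors induced by the pathway, had 0.56 and -0.13, and the iron hormone hepcidin (Hamp) 0.35. Bmper, a BMP-binding protein, was 0 to 4.26 CPM in 5 labelled KO livers and 165 CPM in liver 35, against 0 to 1.98 CPM in the olive oil livers, and was not called (log2 fold change 5.50, edgeR adjusted p = 0.0881, and called without wild-type CCl4 liver 34). Bmp2 (0.21), Bmp6 (-0.87) and the receptor Bmpr2 (0.18) were not called. Of 18 TGF-beta pathway genes only Ltbp2, a secreted matrix protein, rose, beside 5.91% of all tested genes. It was 5.28 to 13.6 CPM (median 8.66) in the labelled KO livers, against 0.478 to 3.27 CPM (median 1.16) in the olive oil livers, without overlap (log2 fold change 2.71, SE 0.40, edgeR adjusted p = 0.00104). Tgfb1 had 0.80 and was not called. None of 11 YAP targets was called.

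Inflammatory signals were mixed. Among all tested genes 5.91% rose and 3.40% fell, the shares to set beside the counts of this paragraph. Of 15 cytokines, chemokines and adhesion molecules 2 rose and 1 fell. Ccl9, a macrophage chemokine of mice, was 121 to 215 CPM (median 172) in the labelled KO livers, against 47.6 to 90.8 CPM (median 59.9) in the olive oil livers, without overlap (log2 fold change 1.33, SE 0.23, edgeR adjusted p = 0.00220). Cxcl9, an interferon-gamma-induced chemokine for T cells, was 2.503 to 4.41 CPM (median 3.54) in the labelled KO livers, against 5.66 to 16.9 CPM (median 8.71) in the olive oil livers, also separate and lower (log2 fold change -1.58, SE 0.31, edgeR adjusted p = 0.00462). Vcam1, an endothelial adhesion molecule, rose with 1.11 (edgeR adjusted p = 0.0276), a call lost without labelled KO liver 35 or without olive oil livers 24, 26 or 27. Ccl2 (2.69, and 0.83 without liver 35), Cxcl1 (2.37, and -0.18 without it) and Il1b (1.81, and -1.12 without it) were not called. Of 23 interferon-stimulated genes 1 rose and 1 fell: Oas1a, a sensor of double-stranded RNA, was 2.27 to 6.33 CPM (median 4.34) in the labelled KO livers, against 0.547 to 2.83 CPM (median 1.46) in the olive oil livers (log2 fold change 1.37, SE 0.34, edgeR adjusted p = 0.0190, lost with the index as a covariate), and Ifit3 had -0.84 (edgeR adjusted p = 0.0369, lost with no filter and when any of 8 single livers was left out: labelled KO 2, 9, 12 or 22 or olive oil 24, 27, 29 or 30). Of 23 acute phase genes only the protease inhibitor Serpina3m rose (log2 fold change 1.42, SE 0.43, edgeR adjusted p = 0.0480), and none without liver 35, where the edgeR adjusted p was 0.106; that call was also lost with no filter, with robust dispersion and without labelled KO livers 2, 8 or 22 or any olive oil liver. Liver 35 scored 2.99 on the acute phase list, against -0.49 to 1.05 in the other 5 labelled KO livers and -0.88 to 1.79 in the olive oil livers.

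The immediate early genes Egr1 and Fos, first responders to growth factors and stress, were called with liver 35 and not when it alone was left out. Egr1 was 54.7 to 343 CPM (median 81.0) in the labelled KO livers, against 5.92 to 69.2 CPM (median 14.8) in the olive oil livers, with overlap, and its log2 fold change was 2.29 (edgeR adjusted p = 0.0276) and 1.69 without liver 35 (edgeR adjusted p = 0.0608). Without olive oil liver 29 it was 2.90, and without livers 35 and 34 it was 1.68 and Egr1 was called (edgeR adjusted p = 0.0402). Fos was 2.11 to 11.02 CPM (median 3.14) in the labelled KO livers, against 0.180 to 1.91 CPM (median 1.02) in the olive oil livers. Its log2 fold change was 2.00, and 1.49 without liver 35 (edgeR adjusted p = 0.0319 and 0.0786), and limma voom did not call it. The call of Fos was kept without livers 35 and 34. Both calls were also lost without olive oil livers 24, 26 or 27, that of Egr1 without 28 and that of Fos without 29. Over the 10 genes liver 35 scored 3.08, the other 5 labelled KO livers 0.07 to 0.49 and the olive oil livers -0.76 to 0.59.

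Markers of other cell types are set beside the 9.30% of all tested genes that were called. None of 13 sinusoidal and 9 general endothelial genes was called, with medians of 0.13 and 0.17, and none of 6 ductular and keratin genes (median 0.53). Stab2, a scavenger receptor of sinusoids, averaged 44.6 ± 9.37 CPM in the labelled KO livers and 40.9 ± 6.44 CPM in the olive oil livers, and the bile duct keratin Krt19 2.90 ± 3.12 CPM in the labelled KO livers and 1.22 ± 0.782 CPM in the olive oil livers. Only 2 of 16 lymphocyte genes were abundant enough to test, Ighm (-0.99) and Cd4 (0.15), neither called, and Cd3e averaged 0.121 CPM in the labelled KO livers and 0.102 CPM in the olive oil livers. Of 13 pancreatic acinar genes 9 had no count in any of the 16 livers, and the adipocyte and muscle markers Adipoq, Plin1, Ckm and Acta1 were at 0 in both groups. Of 5 tested erythroid genes Alas2, the first enzyme of heme synthesis in red cells, fell. It was 13.5 to 64.5 CPM (median 44.3) in the labelled KO livers, against 112 to 169.6 CPM (median 143) in the olive oil livers, without overlap (log2 fold change -1.82, SE 0.36, edgeR adjusted p = 0.00476), while the globins Hba-a1 (-0.71) and Hbb-bs (-0.27) were not called.

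**Figure D4:**
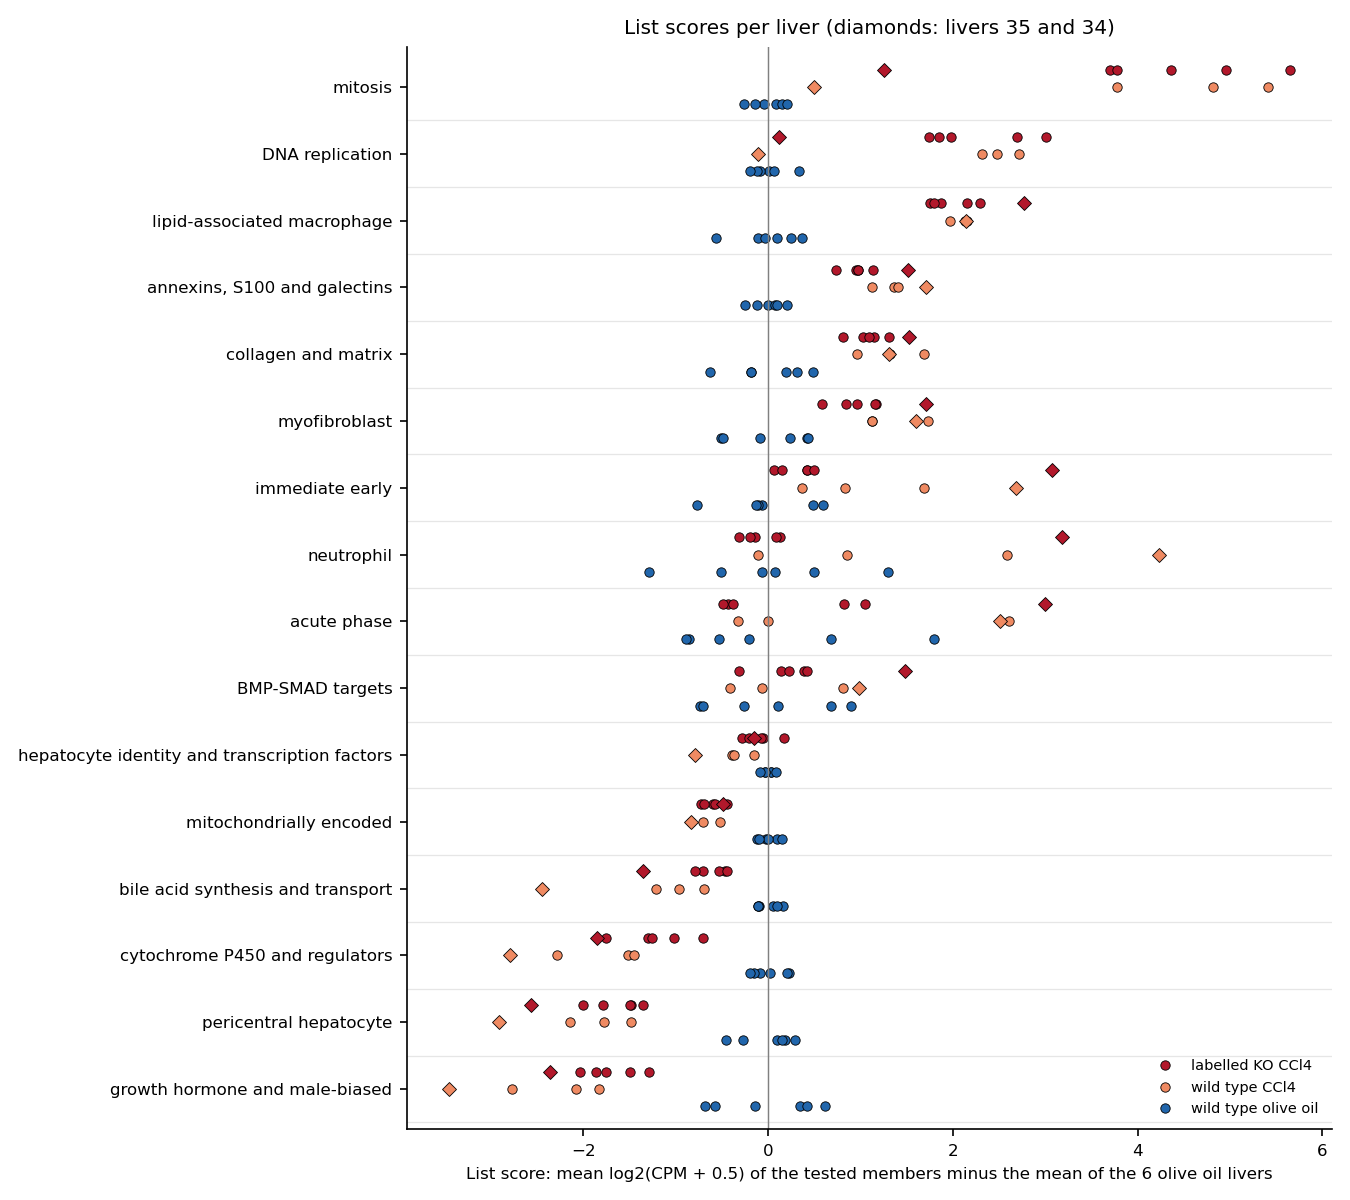
List score per liver for 16 gene lists: mean log2(CPM + 0.5) of the tested members minus the mean of the 6 olive oil livers. Points are livers of the labelled KO CCl4, wild-type CCl4 and wild-type olive oil groups and diamonds mark livers 35 and 34, which lie low for mitosis (1.25 and 0.50) and high for the neutrophil list (3.18 and 4.24).

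**Figure D5:**
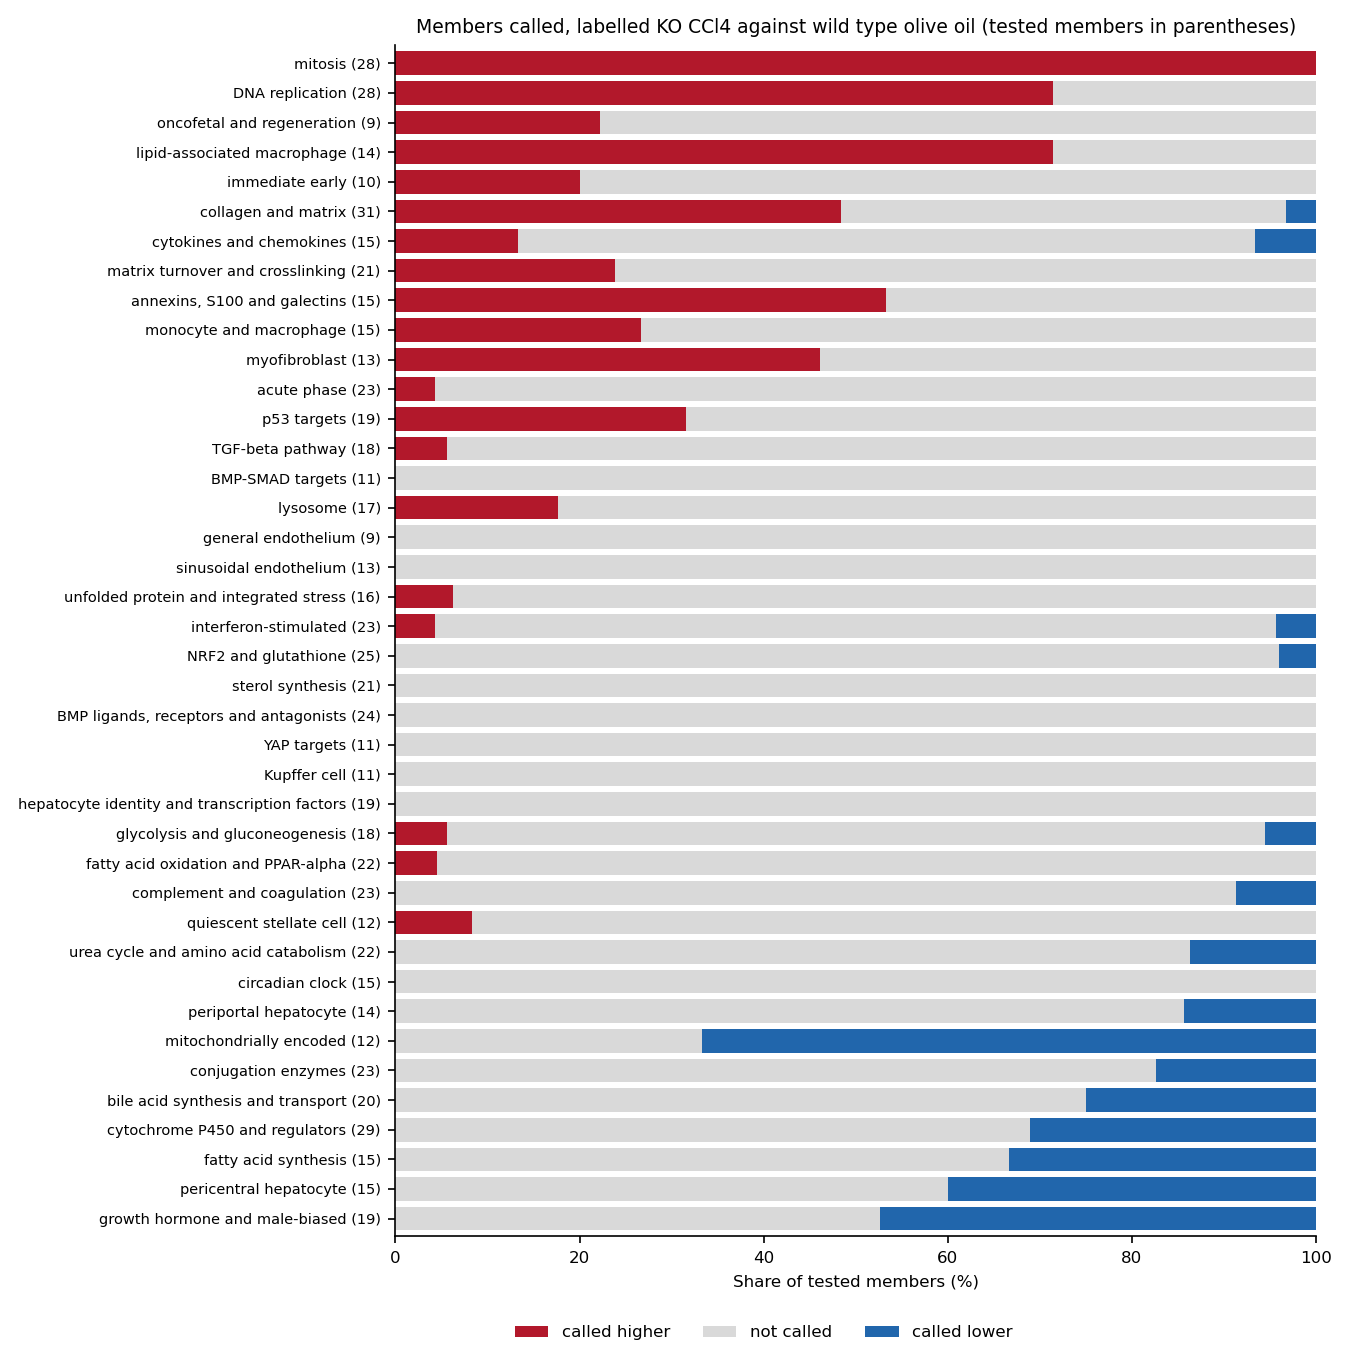
Share in percent of the tested members of 40 gene lists that rose (red), fell (blue) or were not called (grey) between labelled KO CCl4 and wild-type olive oil livers, ordered by median log2 fold change, with the number tested in parentheses. The mitosis list is the one with 28 of 28 members called, and the male-biased list has the lowest median, -1.30.

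The wild-type CCl4 livers were tested directly against the labelled KO livers, since both groups share the olive oil livers and their responses cannot be set side by side as independent. EdgeR called only BC002163 (log2 fold change 5.21), or 0.00857% of the genes, DESeq2 called 20 genes, and 719 genes (6.16%) had an unadjusted edgeR p under 0.05. Beside olive oil, 1085 genes (9.30%) were called in the 6 labelled KO livers and 2331 (20.0%) in the 4 wild-type CCl4 livers, 1296 higher (11.1%) and 1035 lower (8.87%); the difference between those counts was not tested. Several genes had labelled KO levels between those of the wild-type groups. Neb, the muscle filament protein nebulin, averaged 9.13 ± 3.03 CPM in the labelled KO livers, 4.03 ± 1.12 CPM in the wild-type CCl4 livers and 21.5 ± 3.45 CPM in the olive oil livers (between the CCl4 groups edgeR adjusted p = 0.589). Ceacam1, a bile canaliculus adhesion protein, averaged 81.1 ± 10.8 CPM in the labelled KO livers, 54.4 ± 6.62 CPM in the wild-type CCl4 livers and 116 ± 9.64 CPM in the olive oil livers (between the CCl4 groups edgeR adjusted p = 0.589). Dcxr, a xylulose reductase, averaged 53.2 ± 4.17 CPM in the labelled KO livers, 37.7 ± 3.92 CPM in the wild-type CCl4 livers and 78.3 ± 6.58 CPM in the olive oil livers (between the CCl4 groups edgeR adjusted p = 0.589). None of these differences passed adjustment. At an unadjusted p under 0.05, labelled KO livers were higher than wild-type CCl4 livers in 392 of 11663 genes and lower in 327. The lists with the most such genes were P450 (7 of 29) and conjugation (8 of 23) for higher levels. For lower levels they were interferon-stimulated (7 of 23) and NRF2 and glutathione (6 of 25). Conjugation scores were -2.58, -1.60, -0.89 and -0.77 in wild-type CCl4 livers 34, 4, 5 and 7. All but liver 34 lay within the labelled KO range of -1.69 to -0.34. NRF2 and glutathione scores were 1.45, 0.69, -0.01 and -0.42 in livers 7, 5, 34 and 4. The labelled KO range was -0.31 to 0.76. P450 and interferon-stimulated scores overlapped as well. Oas1a averaged 4.25 ± 1.36 CPM in the labelled KO livers, 8.30 ± 0.867 CPM in the wild-type CCl4 livers and 1.63 ± 0.893 CPM in the olive oil livers (between the CCl4 groups edgeR adjusted p = 0.744), and Nop58, a ribosomal RNA methylation factor, 29.1 ± 5.05 CPM in the labelled KO livers, 47.3 ± 17.9 CPM in the wild-type CCl4 livers and 14.3 ± 3.04 CPM in the olive oil livers (between the CCl4 groups edgeR adjusted p = 0.676). Mitosis genes showed none at that threshold in either direction, with a median log2 difference of 0.02 between the CCl4 groups.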

How the data were processed

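The members and gene lists were chosen with earlier results of these data known. The authors deposited raw counts of reads per Ensembl gene in 1 table of 38293 genes, with no normalization. Per the submitters' processing notes, TopHat2 2.0.11, HTSeq and the build GRCm38 were used; the HTSeq version, strand setting, annotation release and filters are not given in the sources used here. Without strand, antisense neighbours cannot be told apart. Groups, mouse numbers and indices came from the labels, and columns were matched by the names in the labels. No pair of libraries of a group agreed within counting error (lowest chi-square per degree of freedom 5.42). Library totals were 2661699 to 6364414 counts; where a library had 0 counts of a gene, 3 counts were its upper limit (95% confidence, counting error only). Symbols came from GENCODE vM21 (36429 of 38293), 4 list genes were matched by an older symbol, and 835 of 837 list genes were found. Promoters came from RefSeq (GRCm38.p6).

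The 16 libraries were fitted in edgeR 4.0.16 (R 4.3.3) as 3 groups in 1 model, with TMM scaling, a filterByExpr filter and two-sided quasi-likelihood F-tests, Benjamini-Hochberg adjusted over 11663 genes. P-values measure the spread between these livers. Bmp8b, too low for the filter, was tested by exact permutation. Gene lists, 49 in all, are described by counts and medians only. Named genes follow a rule: Bmp8b, Bmp8a, BC002163, Ndufs5 and Utp11; the 10 called genes that rose most and the 10 that fell most, with at least 10 CPM in the higher group and no overlap; up to 4 members per list with the smallest p; and 5 per direction from the comparison of the CCl4 groups. The largest changes also needed more than 3 counts in all in the lower group. Names of Gm with digits or ending in Rik were passed over. Other genes, all list members or cell type markers, were chosen after their values were seen. Some list members are not reported here. The fit was tested on simulated data. Alternatives were DESeq2 1.42.0, RLE and upper quartile scaling, no filter, a 1 CPM filter, limma 3.58.1 voom with quality weights, robust dispersion, a fit of the 12 libraries alone, a 1.5-fold threshold, the index as a covariate, values within an index, other pseudocounts and leaving out livers. Python 3.11.15, pandas 2.3.3, scipy 1.17.1 and matplotlib 3.10.9 were used.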

Additional observations from a re-analysis of the deposited data

Results flagged for a closer look

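In groups of 4 or 6 livers, the highest or lowest liver lay further from the rest than Dixon's 95% limit allows in 23 of 405 groups examined, and chance flags about 1 in 20 groups. Labelled KO liver 35 accounts for 12 and wild-type CCl4 liver 34 for 6. Liver 35 was highest of its group for Chil3 (236.8 CPM), Itgam (96.1 CPM), Ctss (218.8 CPM), Psap (1206 CPM), Glul (250.6 CPM), Cd68 (86.9 CPM), Col4a1 (241.6 CPM) and Cyp4a12b (5.76 CPM), and lowest for Pfkm (6.26 CPM) and Tbx3 (1.502 CPM). It was also highest for the immediate early score (3.08) and the neutrophil score (3.18). Wild-type CCl4 liver 34 was lowest for Iqgap3 (0.968 CPM), Mcm6 (8.23 CPM), Top2a (4.12 CPM), Col5a3 (0.968 CPM), Uox (261.7 CPM) and the DNA replication score (-0.11). Wild-type CCl4 liver 4 was highest for Ugt1a1 (81.5 CPM) and lowest for the lipid-associated macrophage score (1.97). Among the olive oil livers, liver 29 was lowest for Cyp4a12a (93.2 CPM), liver 24 for Lyz2 (21.3 CPM) and liver 28 for Abcf3 (42.8 CPM).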

How the results depend on the processing

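No paired analysis was possible because the mouse numbers of the compared groups do not overlap. Against 1085 called genes, limma voom called 1845 (1003 higher and 842 lower, against 689 and 396), the 1.5-fold threshold 329, the index as a covariate 2569 (1312 and 1257), the fit within D504 560, within D505 3769, which hold 732, 291 and 519 of the 1085, and without livers 35 and 34 1852 (1038 and 814). Leaving out 1 liver gave 747 (without olive oil 24) to 1511 (without wild-type CCl4 34). Between the CCl4 groups, against 1 gene, DESeq2 called 20 and left BC002163 (log2 difference 5.44), among 7932 of 11663 genes, without an adjusted p, voom called 2, and the fit without livers 35 and 34 2; leaving out 1 liver gave 1 to 2. Of 118 called genes examined none turned direction in any alternative run. Their calls were lost 129 and kept 1759 times on leaving out 1 liver, lost 70 and kept 149 times within 1 index, where 1 liver stands against 3, and lost 83 and kept 1197 times over the other alternatives. The 1.5-fold threshold ended 48 calls, the index covariate 15, voom 8 and no filter 8. Of 7 uncalled genes followed in full, those that turned direction were Utp11 (-0.42 within D505), S100a8 (-1.08 with voom, -0.88 within D504, -0.91 to 1.92 on leaving out 1 liver with -0.91 without liver 35, -0.89 without 35 and 34) and Alb (-0.16 with the index, -0.65 within D505). Of 61 other uncalled genes with printed values, 30 turned direction in at least 1 alternative and 13 without liver 35, so their signs are not firm; Timd4 had 0.30 within D505 and Cd4 -5.36. Genes under about 1 CPM are limited by counting error.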

Other observations

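The counts of the further lists are to be read beside the 9.30% of all tested genes that were called. None of 21 sterol synthesis genes was called, with a median log2 fold change of 0.01. Liver 35 scored -1.44 on this list, the other 5 labelled KO livers 0.06 to 0.57 and the olive oil livers -0.71 to 0.42. Of 18 glycolysis and gluconeogenesis genes, Pkm, the pyruvate kinase of non-hepatic and proliferating cells, rose. It was 21.1 to 208 CPM (median 46.1) in the labelled KO livers, against 7.94 to 22.0 CPM (median 14.9) in the olive oil livers, with overlap (log2 fold change 2.20, SE 0.50, edgeR adjusted p = 0.0106, and 1.46 without liver 35). The liver isoform Pklr had -1.35 and was not called. Pfkm, the muscle-type phosphofructokinase, fell with -0.77 (edgeR adjusted p = 0.0370), a call lost with no filter and when any of 11 single livers was left out: labelled KO 2, 8 or 12, wild-type CCl4 5 or 7 or any olive oil liver.

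Of 16 genes of the unfolded protein and integrated stress responses only Atf3, a stress-induced transcription factor, rose, beside 5.91% of all tested genes. It was 4.80 to 13.8 CPM (median 7.59) in the labelled KO livers, against 0 to 3.35 CPM (median 1.81) in the olive oil livers, without overlap (log2 fold change 2.19, SE 0.55, edgeR adjusted p = 0.0190); the chaperone Hspa5 had 0.13 and Ddit3 0.20. Of 23 complement and coagulation genes 2 fell. C6, of the membrane attack complex, was 157 to 231 CPM (median 178) in the labelled KO livers, against 225 to 500.96 CPM (median 353) in the olive oil livers (log2 fold change -0.88, SE 0.22, edgeR adjusted p = 0.0175), and Proc, protein C, was 346 to 455 CPM (median 411) in the labelled KO livers, against 532 to 678 CPM (median 582) in the olive oil livers (log2 fold change -0.56, edgeR adjusted p = 0.0194, lost without labelled KO liver 2). None of 15 circadian clock genes was called. The clock scores were -0.55 to 0.22 in 5 labelled KO livers and 0.16 in liver 35, against 0.68 to 0.81 in olive oil livers 24, 26 and 27, of index D504, and -1.21 to -0.03 in livers 28, 29 and 30, of D505. The list's median log2 fold change was -0.69 within D504 and 0.55 within D505. Clock-driven Dbp had -1.64, or -2.34 within D504 and -1.52 within D505, and Ciart had -2.01, or -1.69 within D504 and 2.86 within D505.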
